A study of Mus musculus with 8 samples.

Results

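Il33-positive cells of the mouse SN4741 line at 39 °C are described here. They were chosen by their own Il33 counts: a cell was a member if it came from a 39 °C library, had at most 15% mitochondrial UMIs (unique molecular identifiers, the barcodes that count captured RNA molecules), 200 to 6000 genes and at least 5000 UMIs, and held 2 or more UMIs of Il33. There were 506 members among the 8133 cells of the 39 °C libraries that passed the limits on UMIs, genes and mitochondrial share, and among 19125 deposited cells in all. Levels of Il33 are therefore given as a description, with no test, and Il33 was left out of every fit.

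Interleukin 33 is a cytokine of the IL-1 family that is kept in the nucleus, where it binds chromatin, and that acts as an alarm signal when damaged cells release it. It then binds its receptor Il1rl1 (ST2) with the co-receptor Il1rap on neighbouring cells, and the adaptor Myd88, the Irak kinases and Traf6 carry the signal to NF-kB and the MAP kinases. In the brain it is known from oligodendrocytes and astrocytes, and outside the brain from fibroblasts and other stromal cells and from epithelial and endothelial cells.

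SN4741 is 1 clonal line, labelled as wild-type neural precursor cells, which was made from the substantia nigra region of mouse embryos with a temperature-sensitive SV40 large T antigen under the tyrosine hydroxylase promoter, and its karyotype is described as triploid and unstable. Single-cell RNA was profiled with 10x 3′ v3 chemistry in 4 libraries of cells kept at 37 °C with 10% serum and 4 libraries of cells held for 48 h at 39 °C with 0.5% serum. Temperature and serum changed together, so their parts cannot be told apart. Nothing in the labels says whether the 4 libraries of a group came from separate cultures. The p-values measure how far differences between cell groups within a library vary from library to library, and that variation may be technical.

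Members were present in every 39 °C library and were a small share of each. Library 1 held 78 members, library 2 held 145, library 3 held 177 and library 4 held 106. These were 8.22% of the cells in library 1 (95% Clopper-Pearson interval 6.55 to 10.2), 6.08% in library 2 (5.16 to 7.12), 7.65% in library 3 (6.60 to 8.80) and 4.27% in library 4 (3.51 to 5.14). Intervals cover counting error only. Library 4 was the lowest, and its interval does not reach those of libraries 1, 2 and 3.

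At 37 °C the same rule gave 28, 21, 29 and 17 cells, or 1.25% ± 0.410 (SD, n = 4) against 6.55% ± 1.77 (n = 4) at 39 °C. The lowest 39 °C library lay above the highest 37 °C library (4.27% against 1.70%). Since a deeper cell reaches 2 UMIs more easily, the share each library would show at exactly 5000 UMIs per cell was also computed without random draws: it was 2.76% ± 0.447 at 39 °C and 0.411% ± 0.152 at 37 °C. The plot of Il33 classes by library shows these shares with the number of Il33 UMIs per cell.

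**Figure D1:**
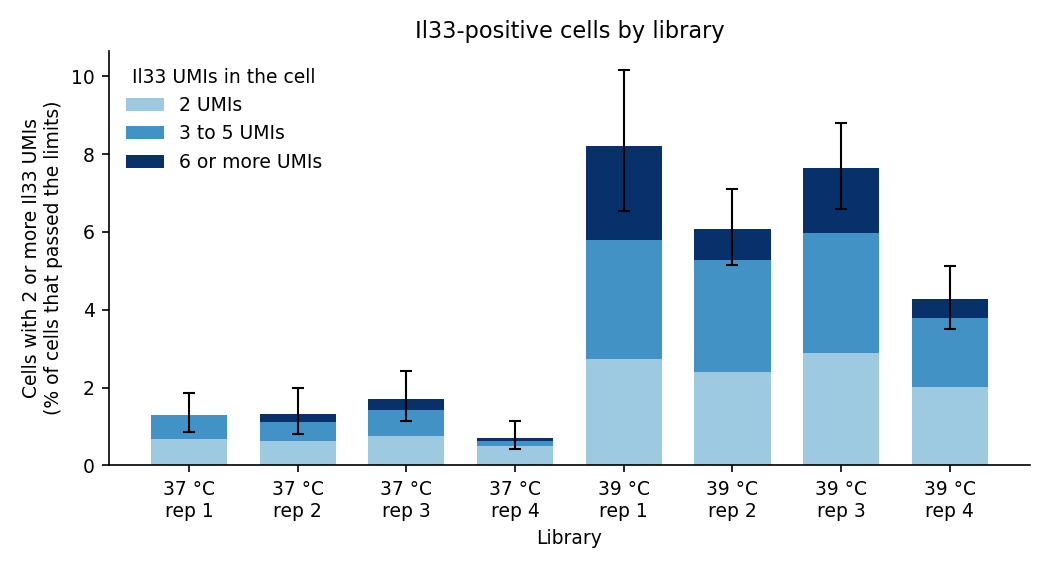
Share of cells with 2 or more Il33 UMIs in each library, in percent of the cells that passed the limits; bar colours divide the cells by their Il33 UMIs and error bars are 95% Clopper-Pearson intervals of the whole bar. The 39 °C libraries sit between 4.27% and 8.22% and the 37 °C libraries between 0.709% and 1.70%.

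Members held most of the Il33 UMIs, which follows in part from the rule, since every member holds 2 or more. Of all Il33 UMIs in cells that passed the limits, members held 89.3% in library 1, 80.9% in library 2, 83.6% in library 3 and 72.7% in library 4. This share was highest in the deepest library and lowest in the shallowest (medians of 17053 UMIs per cell in library 1 and 8073 in library 4). No share expected from scattered counts was computed. Within the members 200 cells held exactly 2 Il33 UMIs, 213 held 3 to 5 and 93 held 6 or more, and the highest cell held 18. Just outside the rule lay 441 cells with a single Il33 UMI. Summed over members Il33 made up 235, 285, 288 and 327 CPM (UMIs of a gene per 1000000 UMIs of the sum) in libraries 1 to 4, against 25.7, 26.2, 30.7 and 21.5 CPM over all cells of the same libraries. The direction of this difference is set by the rule. Free RNA in the droplets can give a cell UMIs of a gene it does not express, and no cell population that should lack Il33 was available in this culture to measure that share.

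Il33 (ENSMUSG00000024810) is a protein-coding gene on the plus strand of chr19:29925114-29960718 in GRCm38, the build of the files. RefSeq gives it 2 starts, the first at the beginning of the gene and the second within it, and the 250 bases before each start are shown because 3′ counts do not tell which start the members used. Capitals mark the letters TATAAA, searched on both strands.
Il33 promoter 1, chr19:29924863-29925112, plus strand: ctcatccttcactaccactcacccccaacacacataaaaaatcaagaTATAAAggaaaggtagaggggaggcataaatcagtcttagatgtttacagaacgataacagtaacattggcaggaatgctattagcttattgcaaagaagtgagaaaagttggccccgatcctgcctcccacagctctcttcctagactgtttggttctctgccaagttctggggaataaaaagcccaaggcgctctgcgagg
Il33 promoter 2, chr19:29945540-29945789, plus strand: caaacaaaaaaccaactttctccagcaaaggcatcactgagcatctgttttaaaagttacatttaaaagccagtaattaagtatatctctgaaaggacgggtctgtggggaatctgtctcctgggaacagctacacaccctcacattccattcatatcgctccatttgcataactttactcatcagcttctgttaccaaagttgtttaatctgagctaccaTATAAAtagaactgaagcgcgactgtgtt
The TATAAA match begins 203 bases before the start in promoter 1 and 29 bases before it in promoter 2. The same letters occur in 12.3% of 32544 RefSeq promoter windows of this length (GRCm38.p6). The windows were also searched for CTTTGAT or CTTTGTT, letters known from TCF/LEF sites of the Wnt pathway, on both strands. They occur in 8.06% of all windows and were not found in either Il33 window.

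Members were deeper than the rest. Their median was 22695 UMIs per cell in library 1, 11862 in library 2, 12692 in library 3 and 9202 in library 4, while cells with 0 Il33 UMIs had medians of 16540, 9131, 10154 and 7961. Each member was therefore paired within its own library with up to 2 cells with 0 Il33 UMIs whose totals, counted without Il33, lay within 10% of its own. All 506 members found a partner, with 1011 matched cells in all, whose medians were 22683, 11862, 12688 and 9204 UMIs. The median mitochondrial share was 7.11%, 7.49%, 7.55% and 8.35% in members of libraries 1 to 4 and 7.93%, 7.79%, 8.16% and 8.37% in their matched cells. It was thus lower in the members of every library, and its part in the differences given here was not tested.

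Nearly all members were scored as G1, the phase before DNA is copied. The G1 share was 97.4% against 91.0% of matched cells in library 1, 99.3% against 81.4% in library 2, 97.7% against 81.0% in library 3 and 98.1% against 83.5% in library 4. Members were higher in 4 of 4 libraries, by 13.9 ± 5.19 percentage points (SD, n = 4). In a two-sided exact permutation test that flips the sign of each library's difference, p was 0.13, the smallest value that the 16 sign patterns of 4 libraries allow. Only 8 members were scored as S phase, in which DNA is copied, and 1 as G2/M, against 116 and 54 of the matched cells.

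The same ordering was seen in cells that the rule did not use. Of the 441 cells at 39 °C with a single Il33 UMI, 94.6% ± 1.03 (SD, n = 4) were scored as G1, against 85.2% ± 1.58 of 441 other depth-matched cells with 0 UMIs (exact permutation p = 0.13). At 37 °C, where most cells were cycling, 65.9% ± 6.48 of the 95 cells with 2 or more Il33 UMIs were scored as G1 and 27.0% ± 7.98 of their 190 matched cells (exact permutation p = 0.13). The plot of depth and G1 share shows each library as a line.

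**Figure D2:**
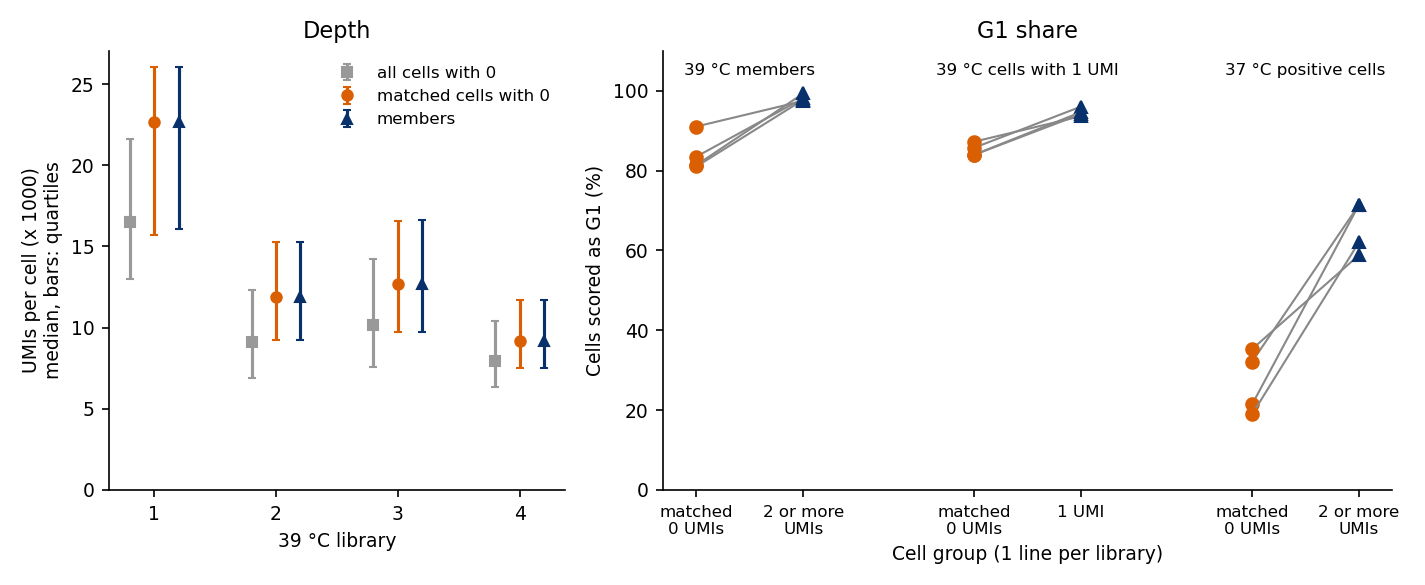
Left, UMIs per cell divided by 1000 (median, bars from the lower to the upper quartile) for all cells with 0 Il33 UMIs, the matched cells with 0 and the members, by 39 °C library; right, percent of cells scored as G1 in matched cells and in Il33-positive cells, with 1 line per library. The members' medians lie above those of all cells with 0 UMIs and on those of the matched cells, and all 12 lines in the right panel rise.

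Apart from Il33 the members carried the glutamate transporter gene Slc1a3, the genes Pla2g7, Mgp, Igfbp2 and Enpp2 for secreted proteins and several genes of the matrix and of Wnt signalling at higher levels than matched cells, and genes of the cell cycle, the chemokines Ccl2 and Ccl7 and smooth muscle actin at lower levels. UMIs were summed per library over members and over matched cells, and the paired sums were compared across the 4 libraries with the edgeR quasi-likelihood test, with Benjamini-Hochberg adjustment over all 10008 genes tested and a threshold of 0.05. It called 1091 genes higher (10.9% of the genes tested) and 1070 lower (10.7%). Of these, 1004 of the higher and 948 of the lower genes moved the same way in 4 of 4 libraries. A change of at least 1 on the log2 scale was seen for 67 of the higher and 131 of the lower genes. DESeq2 called 395 higher and 303 lower, and all 698 were among the genes that edgeR called, with the same direction.

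Levels below are CPM of sums without Il33, scaled with TMM factors, which correct for differences in composition. Slc1a3, the glutamate transporter GLAST known from astrocytes and radial glia, had the largest rise among the genes named by rule. It stood at 35.7, 33.7, 36.9 and 33.9 CPM in the members of libraries 1 to 4 and at 4.45, 9.58, 7.58 and 6.47 in their matched cells. The groups did not overlap, and the log2 fold change was 2.29 ± 0.17 with its standard error (edgeR quasi-likelihood adjusted p = 1.09e-27). At least 1 Slc1a3 UMI was seen in 22.3% of members and 6.21% of matched cells (means of 4 libraries), so most members had none.

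Pla2g7, a secreted phospholipase that breaks down platelet-activating factor, was at 142, 126, 132 and 133 CPM in members and at 29.4, 25.6, 33.2 and 34.2 in matched cells. Every member sum lay at more than 3 times its matched sum, and the log2 fold change was 2.13 ± 0.09 with its standard error (edgeR adjusted p = 2.78e-59). It was detected in 60.9% of members and 19.8% of matched cells.

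Mgp, the matrix Gla protein that restrains calcification, was at 117, 221, 273 and 175 CPM in members and at 64.9, 94.2, 53.5 and 65.7 in matched cells, a log2 fold change of 1.55 ± 0.08 with its standard error (edgeR adjusted p = 1.11e-45). Igfbp2, which binds insulin-like growth factors outside the cell, was at 274, 405, 262 and 287 against 148, 98.8, 72.9 and 123, which is 1.52 ± 0.07 on the log2 scale (edgeR adjusted p = 1.59e-55). Enpp2, which makes the signalling lipid lysophosphatidic acid, was at 138, 137, 139 and 149 against 42.4, 32.5, 64.5 and 62.0, which is 1.49 ± 0.08 on the log2 scale (edgeR adjusted p = 1.79e-41). In each of these secreted products the members of all libraries were higher than every matched sum, though the size differed: the Mgp difference ran from the smallest in library 1 to the largest in library 3. Hopx, a homeodomain protein that lacks DNA binding, was detected in 71.1% of members and 35.4% of matched cells, with a log2 fold change of 1.39 ± 0.07 with its standard error (edgeR adjusted p = 8.26e-45).

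The other rises named by rule were Il18rap, the accessory chain of the interleukin 18 receptor (log2 fold change 1.86 ± 0.19), the keratin Krt76 (1.61 ± 0.18), Wif1, a secreted Wnt inhibitor (1.59 ± 0.14), and the integrin chain Itgb3 (1.42 ± 0.19), all with their SE. All 4 were higher in the members of 4 of 4 libraries. Of the 10 rises as a group, a median member had 3 to 4.5 detected and a median matched cell 1, by library. At least 5 of the 10 were detected in 50.0%, 39.3%, 39.5% and 23.6% of the members of libraries 1 to 4 and in 10.9%, 6.21%, 7.37% and 4.25% of matched cells. These genes were chosen by this same contrast, so their joint detection is given as a description.

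**Figure D3:**
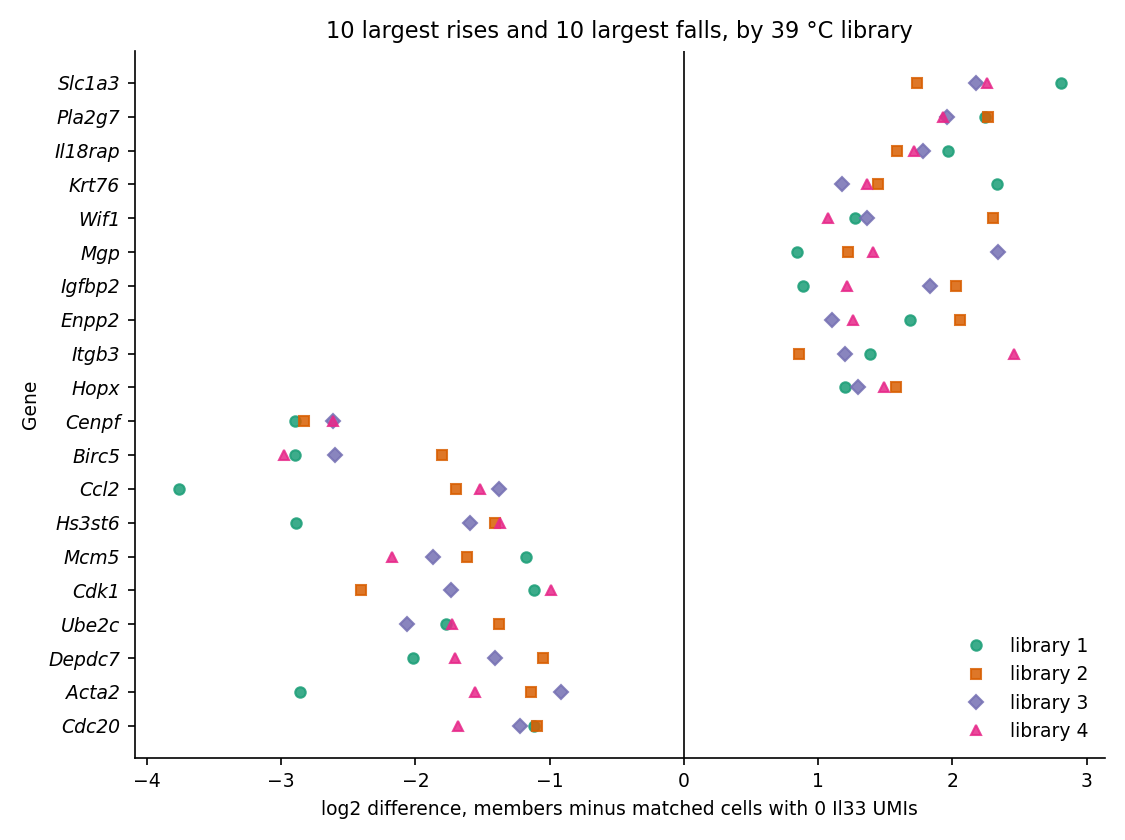
Log2 difference between members and matched cells with 0 Il33 UMIs (horizontal axis) for the 10 largest rises and 10 largest falls named by rule, with 1 point per 39 °C library. All points of a gene lie on the same side of 0, and library 1 stands apart for Ccl2 (-3.76, the other libraries -1.70 to -1.38).

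Genes of cell division were frequent among the falls, beside the higher G1 share of members. Cenpf, a kinetochore protein of mitosis, was at 1.82, 2.76, 3.77 and 1.94 CPM in members and at 18.4, 24.2, 27.0 and 15.7 in matched cells, a log2 fold change of -3.01 ± 0.26 with its standard error (edgeR adjusted p = 1.74e-22). Birc5 (survivin), Mcm5 of the replicative helicase, the mitotic kinase Cdk1, and Ube2c and Cdc20 of the anaphase-promoting pathway changed by -2.72 to -1.27. Of the 20 genes named as rises and falls, Cdk1 lost its call when matched cells were taken from the same phase or when G1 cells alone were compared, and Cenpf lost its call with matching within phase. In G1 cells alone, 1868 genes were called in all, and 1634 of the 2161 genes called in all members were called there with the same direction.

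Among the 10 falls named by rule, which had to reach a mean of 20 CPM and move the same way in 4 of 4 libraries, the largest outside the cell cycle was that of Ccl2, the chemokine that draws monocytes. It was at 4.84, 6.62, 16.8 and 10.7 CPM in members and at 75.3, 23.2, 44.7 and 31.9 in matched cells, a log2 fold change of -2.10 ± 0.16 with its standard error (edgeR adjusted p = 1.87e-25). All member sums lay below all matched sums, and library 1 had both the lowest member and the highest matched value. Acta2, the smooth muscle actin, was at 3.03, 14.4, 9.21 and 10.7 against 26.7, 32.5, 18.0 and 32.8, which is -1.49 ± 0.19 on the log2 scale (edgeR adjusted p = 6.01e-12). Acta2 was not called among cells of 5000 to 15000 UMIs. Both genes were seen in few cells: Ccl2 in 7.29% of members and 19.0% of matched cells, and Acta2 in 3.10% and 7.26% (means of 4 libraries). Hs3st6, a heparan sulfate sulfotransferase, and Depdc7, a DEP domain protein, had log2 fold changes of -1.83 ± 0.21 and -1.55 ± 0.14.

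Genes through which the interleukin 33 signal is received and passed on gave 1 call. Of 18 genes in the list of the receptor and its signalling, 16 had enough UMIs to be tested, 0 were higher and 1 was lower, beside 10.9% higher and 10.7% lower over all genes tested, with a median log2 fold change of 0.00. That gene was Nfkb1, the p105/p50 subunit of NF-kB, at 50.2, 44.2, 50.3 and 55.2 CPM in members and 67.9, 53.5, 61.7 and 67.5 in matched cells (log2 fold change -0.33 ± 0.10 with its standard error, edgeR adjusted p = 0.00691). It was not called by DESeq2. Among the other 15 genes, log2 fold changes ran from -0.36 for the kinase Mapk14 to 0.41 for the adaptor Tab1, and 3 genes of the list (Tab1, Nfkb1 and Mapk14) had an unadjusted p under 0.05.

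The receptor gene itself was scarce. Il1rl1, which encodes ST2, gave 23 UMIs in all members together and 45 in the matched cells, 3.27 and 3.21 CPM, too few to be tested. The co-receptor Il1rap was at 4.84, 4.97, 5.03 and 5.81 CPM in members and 6.52, 4.53, 4.10 and 6.47 in matched cells, which overlap (log2 fold change -0.02 ± 0.30 with its standard error, edgeR adjusted p = 0.977). Sigirr, an inhibitory receptor of the same family, gave 1 and 6 UMIs.

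Receptor genes for other cytokines of the family differed in part. The IL-1 receptor list was chosen after values were seen, and 3 of its 10 genes could be tested. Of these 2 were higher and 0 lower, beside 10.9% higher and 10.7% lower over all genes tested. Beside Il18rap, Il1r1, the receptor for IL-1, was at 11.1 CPM in members and 7.75 in matched cells (means of 4 libraries). Its log2 fold change was 0.59 ± 0.23 with its standard error (edgeR adjusted p = 0.048), a call that DESeq2 did not make. Il1r1 was not called in cells with a single Il33 UMI either (0.56 ± 0.29, edgeR adjusted p = 0.277). The cytokine genes Il1a and Il1b had 0 UMIs in members and in matched cells, which allows up to 0.427 CPM in the members at 3 UMIs of the total. Il18 stood at 19.1 and 18.6 CPM over the pooled cells and was not called (edgeR, adjusted p = 0.794).

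None of the tested genes that NF-kB is known to switch on was called higher in members. Of 23 listed genes 14 could be tested, with 0 higher and 4 lower, beside 10.9% higher and 10.7% lower over all genes tested. The genes that fell were the chemokines Ccl2 and Ccl7 (-1.78 ± 0.25), the adhesion molecule Vcam1 (-0.95 ± 0.27) and the growth factor Csf1 (-0.31 ± 0.07), each a log2 fold change with its SE, and DESeq2 did not call Vcam1. Nfkbia, the inhibitor that NF-kB itself induces, was at -0.03 and was not called. Of 16 tested interferon-response genes, to be read against the same shares, 0 were higher and 4 were lower, Psmb8, an immunoproteasome subunit, by the most (-1.12 ± 0.39), which DESeq2 did not call. The median over the list was -0.03 for NF-kB genes and -0.06 for interferon genes, beside 0.01 over all genes tested.

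Most tested cell-cycle genes fell, beside 10.7% lower and 10.9% higher over all genes tested. The S and G2/M genes listed here also set the phase scores. Their fall is therefore not a result separate from the higher G1 share of members. Of 39 tested genes used to score S phase, 0 were higher and 28 lower, with a median of -0.70. Of 44 tested genes used to score G2/M, 0 were higher and 29 lower, with a median of -0.78, and Mki67, the usual marker of dividing cells, had the largest fall (-3.69 ± 0.31). Nuclear proteins that go with chromatin fell in part: Hmgb2 by 1.04 and the histone variants H2afx and H2afz by 0.75 and 0.41 on the log2 scale. The calls of H2afx and H2afz were lost in G1 cells alone. The nuclear RNAs Malat1 and Neat1 rose, by 0.34 ± 0.02 and 0.39 ± 0.03 (SE), and Malat1 took 61761 CPM in the pooled members and 50374 in the pooled matched cells. Scaled by library totals alone, the split of calls changed from 1091 higher and 1070 lower to 796 and 1405, with the median of all genes at -0.04.

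Oligodendrocyte genes, the cell type for which Il33 served as a marker in the study, were scarce in members. Of 19 lineage genes, 10 had 0 UMIs in members and matched cells alike, among them Olig1, Olig2, Sox10, Mog and Mag. The summed level of the list was 38.4 to 48.0 CPM in the members of the 4 libraries and 47.9 to 59.2 in the matched cells. Of 4 genes tested 1 was higher and 1 lower, beside 10.9% higher and 10.7% lower over all genes tested. Cnp, a myelin enzyme found in other cells too, was higher (0.77 ± 0.26). Cspg4 (NG2), of oligodendrocyte precursors and pericytes, was lower (-0.61 ± 0.13), and neither was called by DESeq2. Olig3 gave 1 UMI in members and 2 in matched cells, Ptgds 4 and 11, and Hdac11 was at 3.84 and 4.72 CPM with overlapping libraries (log2 fold change -0.31 ± 0.34 with its standard error, edgeR adjusted p = 0.581).

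Of 11 astrocyte genes, 4 were tested, to be read against 10.9% higher and 10.7% lower over all genes tested. All 4 were higher, namely Slc1a3, Sox9 (0.76 ± 0.14), the gap junction gene Gja1 (0.25 ± 0.09) and the filament gene Vim (0.10). Gja1 was not called by DESeq2 or in G1 cells alone. Sox9 is a transcription factor of glia and of cartilage. The defining genes Gfap, Aqp4 and Fabp7 had 0 UMIs in members and matched cells. Aldh1l1, with too few UMIs to be tested, was lower in the pooled members (2.14 CPM against 3.36 in matched cells). Slc1a2, S100b and Aldoc gave 4 or fewer UMIs in either group. Endothelial markers summed to at most 2.14 CPM in any library's members and leukocyte markers to at most 1.61, with Cdh5, Cldn5, Csf1r and Cd3e at 0 UMIs. Of the epithelial genes Krt14 alone could be tested, and its fall (-0.74) turned to 0.25 without library 2.

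Genes of fibroblasts and other stromal cells rose together in count. Of 17 listed, 11 were tested, 10 were higher and 0 lower, with a median of 0.42 against 0.01 over all genes and against 10.9% of all genes called higher. Col1a1, the main chain of type I collagen, was at 959, 898, 879 and 1046 CPM in members and 564, 572, 560 and 595 in matched cells (log2 fold change 0.71 ± 0.04 with its standard error, edgeR adjusted p = 5.85e-43). The mesenchymal transcription factors Prrx1 and Twist1 were higher by 0.61 ± 0.06 and 0.38 ± 0.08, and the receptor Pdgfrb by 0.49 ± 0.09. The summed level of the list was 5159 to 5712 CPM in members and 4302 to 4666 in matched cells, which do not overlap. Dcn, Lum and Thy1, usual markers of fibroblasts, gave 2 or fewer UMIs.

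Proteins of skeletal and ligament matrix were a list chosen after values were seen. Over all genes tested 10.9% were higher and 10.7% lower. Of the 12 tested genes of this list, 1 was lower and 8 were higher. Beside Mgp these were the small proteoglycans and glycoproteins Prelp (1.22 ± 0.09), Omd (1.03 ± 0.10), Ogn (0.83 ± 0.13) and Bgn (0.23), the collagen Col12a1 (1.32 ± 0.07), the joint lubricant Prg4 (1.03 ± 0.11) and Sox9. The gene that fell was Spp1, osteopontin (-0.31 ± 0.05). Of 11 IGF-binding genes, also listed after values were seen, 6 were tested, with 3 higher and 0 lower, to be read against the same shares. Igfbp4 rose by 1.80 ± 0.22 beside Igfbp2, and Igf1r by 0.19 ± 0.07, though in 2 of 4 libraries only. Igfbp3 (-0.38 ± 0.31) and Igfbp7 (0.08 ± 0.07) were not called.

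Wnt genes formed another such list, also chosen after values were seen, with 33 of 59 genes tested. Over all genes tested 10.9% were higher and 10.7% lower, with a median of 0.01. Of the tested Wnt genes 3 were lower and 14 were higher, with a median of 0.31. They included Axin2 (1.28 ± 0.13), Notum (1.19 ± 0.09) and Nkd2 (1.58 ± 0.30), which Wnt signalling is known to induce and which restrain it. Axin2 stood at 52.0, 38.1, 41.5 and 44.5 CPM in members and 16.6, 19.2, 17.2 and 19.4 in matched cells, without overlap. The secreted inhibitors Wif1 and Sfrp1 (1.09 ± 0.09), the receptors Fzd1 (1.11 ± 0.10), Fzd7 (0.75 ± 0.19) and Lgr5 (0.74 ± 0.08) and the transcription factor Tcf7 (0.94 ± 0.13) were higher too. Ctnnb1, which encodes beta-catenin, was at 0.10 ± 0.07 and was not called (edgeR, adjusted p = 0.356), and Wnt9a (-0.49 ± 0.11), Apc (-0.36) and Wnt4 (-0.20) were lower.

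Other lists gave counts to be read against the 10.9% higher and 10.7% lower over all genes tested. In cholesterol synthesis 4 of 17 tested genes were higher and 0 lower, led by Cyp51, lanosterol demethylase (1.37 ± 0.09). Of 25 tested p53 targets 2 were higher and 5 lower. The higher genes were Cdkn1a (0.25 ± 0.03) and Phlda3 (0.14 ± 0.04), and the largest fall was that of Pmaip1 (Noxa, -0.71 ± 0.13). Of 20 neuronal genes 7 were tested, with 1 higher and 2 lower: Stmn2, a microtubule regulator of neurites, rose by 1.03 ± 0.08, and Celf5 and Dpysl5 were lower by 0.35 and 0.91 on the log2 scale, Dpysl5 not by DESeq2. Of 11 neural progenitor genes 4 were tested, and of these Hes1, a target of Notch, was higher (0.38 ± 0.06) and the transcription factor Sox2 lower (-0.69 ± 0.09). Of the 14 heat shock and chaperone genes 4 were higher and 3 lower, Hspa1b by the most (0.80 ± 0.12). Among genes the study named for the 39 °C state, a list chosen on these samples, Enpp2 and Irx3 (0.72 ± 0.05) were higher and Celf5 and Hmga2 were lower.

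**Figure D4:**
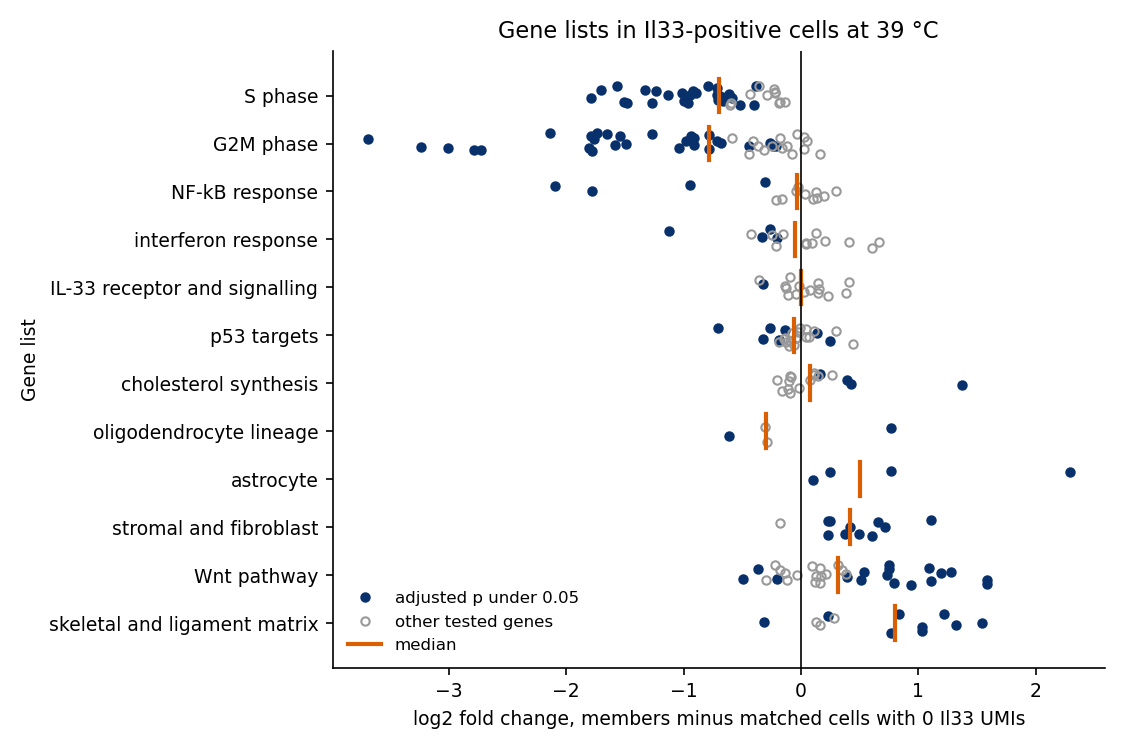
Log2 fold change between members and matched cells with 0 Il33 UMIs for each tested gene of 12 gene lists; filled points passed an edgeR adjusted p of 0.05 and orange bars are list medians. The S phase and G2/M lists have medians of -0.70 and -0.78, the interleukin 33 signalling list lies around 0.00, and the stromal, Wnt and skeletal matrix lists have medians of 0.42, 0.31 and 0.80.

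Cells with a single Il33 UMI, which the rule left out, were compared with matched cells that served no member, so no cell was in both comparisons. They gave 341 genes higher (3.78% of 9025 tested) and 329 lower (3.65%) by the edgeR quasi-likelihood test. Of the 1050 genes higher in members that were tested here, 301 were called higher again and 0 lower, which is 28.7% of them and 88.3% of the list of single-UMI cells. Of the 980 lower genes, 279 were called lower again and 1 higher. Both comparisons draw on the same 4 libraries. Pla2g7 was higher by 1.43 ± 0.13, Mgp by 1.48 ± 0.14, Slc1a3 by 1.86 ± 0.25 and Notum by 0.61 ± 0.11, on the log2 scale with SE. Il18rap (0.57 ± 0.26) and Itgb3 (0.24 ± 0.24) were not called in single-UMI cells. Without library 3 the number of calls fell from 670 to 258.

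Cells with 2 or more Il33 UMIs at 37 °C came from other libraries and offered a second look. The test called 335 genes higher (5.11% of 6562 tested) and 332 lower (5.06%). Of 897 genes that were higher in members at 39 °C and tested at 37 °C, 240 were called higher and 4 lower, and 84.8% had the same sign. Of 838 lower genes, 197 were called lower and 7 higher, and 74.7% had the same sign. Many of the falls are cell-cycle genes, and the G1 share differed by 39.0 percentage points between these 37 °C groups. In G1 cells alone only 85 genes were called at 37 °C.

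Secreted and matrix genes were among those with the same direction at 37 °C. Enpp2 was higher by 2.96 ± 0.32, Mgp by 2.50 ± 0.16, Notum by 2.32 ± 0.28, Pla2g7 by 2.24 ± 0.24, Igfbp2 by 2.02 ± 0.13 and Hopx by 1.65 ± 0.17 (log2 fold change with SE). Some genes did not follow. Slc1a3, the largest rise named by rule at 39 °C, was at 0.72 ± 0.32 and was not called at 37 °C (edgeR adjusted p = 0.157). Stmn2 was at 0.11 ± 0.17, Ccl2 at 0.19 ± 0.21 and Acta2 at -0.26 ± 0.19, and none of them was called. The values of the 20 genes in the 3 comparisons are plotted side by side.

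**Figure D5:**
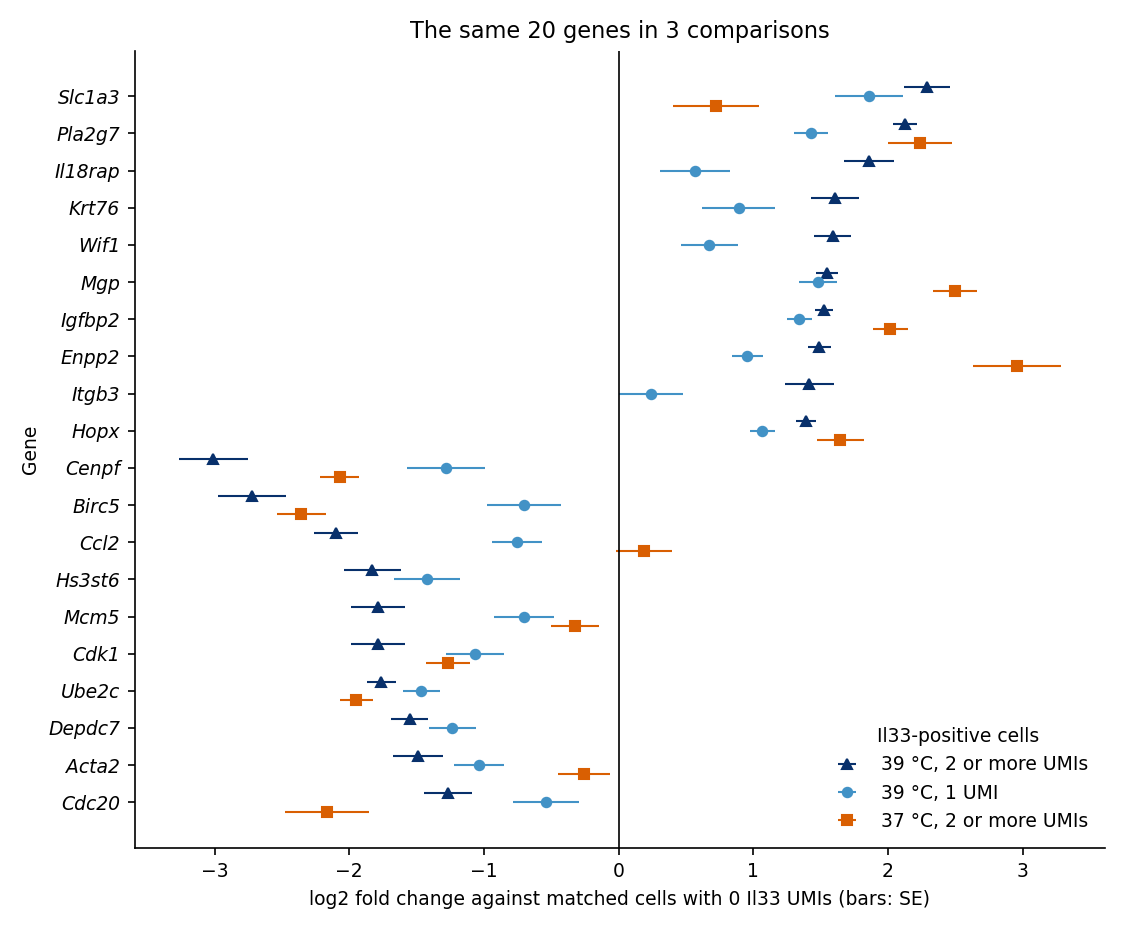
Log2 fold change against matched cells with 0 Il33 UMIs (horizontal axis, bars SE) for the 20 genes named as largest rises and falls, in members, in 39 °C cells with a single Il33 UMI and in 37 °C cells with 2 or more; genes with too few UMIs have no point. Pla2g7, Mgp, Igfbp2, Enpp2 and Hopx are to the right of 0 in all 3 comparisons, while Ccl2 is at -2.10 in members and 0.19 at 37 °C.

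The difference between the temperatures was tested in a single fit with all 8 libraries, which called 153 of 9298 genes (1.65%). Ccl2 differed by -2.30 ± 0.32 (log2, 39 °C minus 37 °C with its standard error, edgeR adjusted p = 1.85e-06). The contrast was more positive at 39 °C for Slc1a3 (1.60 ± 0.37, edgeR adjusted p = 0.00723), Stmn2 (0.94 ± 0.18, edgeR adjusted p = 0.000925), Col1a1 (0.52 ± 0.08, edgeR adjusted p = 5.78e-06) and Cyp51 (0.83 ± 0.19, edgeR adjusted p = 0.00712). Enpp2 (-1.45 ± 0.39, edgeR adjusted p = 0.0307) and Mgp (-0.93 ± 0.25, edgeR adjusted p = 0.0284) rose less at 39 °C than at 37 °C. For Sox9, which had too few UMIs to be tested at 37 °C alone, the difference was -2.20 ± 0.40 (edgeR adjusted p = 0.000356). No difference passed for Pla2g7 (-0.10 ± 0.26, edgeR adjusted p = 0.935).

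Members resembled each other more than their matched cells resembled them when Il33 was left out of the gene set. Among the 15 nearest cells of a member in the same library, by 20 principal components of 2000 variable genes, 35.4%, 20.2%, 24.4% and 19.4% were members in libraries 1 to 4. Among the 15 nearest cells of a matched cell these shares were 7.95%, 5.84%, 6.31% and 4.59%, close to the share of members among all cells. The difference was 18.7 ± 6.07 percentage points (SD, n = 4; exact permutation p = 0.13, the smallest possible). Members thus made up a minority of their own neighbours in every library. Around cells with a single Il33 UMI the share was 17.6% ± 5.00, between the other groups.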

How the data were processed

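The authors deposited, for each of 8 libraries, a filtered matrix of raw UMI counts per gene and cell barcode made with Cell Ranger 3.0.1 and mm10, per the labels' processing notes, with 31053 genes and no cell annotation. Cells were kept with at most 15% mitochondrial UMIs, 200 to 6000 genes and at least 5000 UMIs. No doublet caller was run. Libraries shared at most 5 cell barcodes. Phases were scored with Seurat 5.3.0 on its S and G2/M gene lists. The members, the gene lists and the tests were chosen with earlier results of these data known.

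Raw counts were summed per library over each cell group, with Il33 set aside. Sums were compared with edgeR 4.0.16 (TMM factors, quasi-likelihood test, library as a block, R 4.3.3), for genes with a mean of at least 10 counts per sum. Both sums of a pair come from the same library, which is the source of the pairing; deviations of the 2 sums from their group means correlated by 0.139, 0.082, 0.054 and 0.08, each best within its own library. Genes called had a Benjamini-Hochberg adjusted p under 0.05. The script was tested on simulated data. DESeq2 1.42.0 was an alternative. Matched cells were used once each, taken from the deepest member downwards, and the 37 °C cells were treated likewise. Phase shares were compared by exact sign-flip permutation over libraries.

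Named genes were the 10 largest rises and 10 largest falls among called genes that reached a mean of 20 CPM in members or matched cells and moved the same way in 4 of 4 libraries, up to 3 called genes of each of 26 lists with the largest change, all tested genes of the interleukin 33 signalling list, and Olig3, Hdac11 and Ptgds. A further 4 lists and the genes near Il33 were added after values were seen. Cells that passed had a median of 8073 to 17053 UMIs by 39 °C library and 10545 to 15753 by 37 °C library. A count of 0 is read against a floor of 3 counts. Values of some listed genes are not reported here.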

Additional observations from a re-analysis of the deposited data

Results flagged for a closer look

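Over 108 sets of 4 libraries, 7 had 1 library that stood apart from the other 3 by Dixon's 95% criterion, and chance alone gives about 1 in 20 such sets. In library 1 the log2 difference between members and matched cells was -3.76 for Ccl2 (others -1.70 to -1.38), -2.89 for Hs3st6 (others -1.59 to -1.37) and -0.43 for Nfkb1, the NF-kB subunit (others -0.29 to -0.27). In library 2 it was -0.36 for Ankrd1, a YAP target (others -1.02 to -0.93), and -0.58 for H2afz, a histone variant (others -0.35 to -0.33). In library 4 it was 0.58 for the antioxidant enzyme Prdx1 (others 0.37 to 0.40). Cells with a single Il33 UMI exceeded their matched cells in G1 share by 6.38 percentage points in library 1 and by 10.2 to 10.7 in the others.

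The contrast between Il33-positive and matched cells differed between the temperatures, by the edgeR test of that difference, for 16 of the 89 named genes in the fit. It was larger at 39 °C, in log2 units at 39 °C minus 37 °C, for Slc1a3 (1.60), Stmn2 (0.94), Cyp51 (0.83), H2afz (0.54), Col1a1 (0.52) and the co-chaperone Dnaja1 (0.47). For H2afz this was a smaller fall at 39 °C. It was more negative or less positive at 39 °C for Wif1 (-3.16), Krt76 (-3.01), Ccl2 (-2.30), Sox9 (-2.20), Ccl7 (-2.15), the detoxifying enzyme Gsta4 (-1.88), Mki67 (-1.83), Enpp2 (-1.45), Mcm5 (-1.42) and Mgp (-0.93). Wif1, Krt76, Ccl7 and Sox9 had too few UMIs at 37 °C to be tested there alone.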

How the results depend on the processing

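Of the 2161 genes called in members, DESeq2 called 698, and fewer cells or UMIs gave fewer calls: 1067 among cells of 5000 to 15000 UMIs and 1405 in the 306 members with 3 or more Il33 UMIs. In splits added after the data were seen, members with exactly 2, 3 to 5 and 6 or more UMIs gave 775, 922 and 330. Leaving out each library in turn gave 1548 to 1711. Without the paired sums (no replicate block) the counts were 1466 for members, 353 of 670 for single-UMI cells and 478 of 667 at 37 °C. DESeq2 called 123 in single-UMI cells, where 4899 genes had no adjusted p, and 158 at 37 °C, and G1 cells alone gave 440 and 85. Leaving out a library gave 258 to 536 for single-UMI cells (258 without library 3), 356 to 600 at 37 °C (384, 356 and 419 without libraries 1, 2 and 3) and 83 to 107 of 153 for the difference between temperatures (88 and 83 without libraries 2 and 3). The G1 difference stayed positive under every alternative run, at 12.6 to 16.4 percentage points. If every cell is thinned to 5000 UMIs, 224 members are expected in place of 506.

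Directions turned for few named genes, none called after turning. Krt14 changed from -0.74 to 0.32 in G1 cells, 0.29 against all cells with 0 UMIs and 0.35 with matching within phase, and ranged from -1.06 to 0.25 (without library 2) when libraries were left out. Gsta4 changed from -0.47 to 0.12, 0.40 and 0.13 in the first 3 of these settings. Tagln turned to 0.093 among cells of 5000 to 15000 UMIs, Cyr61 to -0.014 in members with exactly 2 UMIs, and Atf3 and Ddit3 to 0.50 and 0.069 in members with 6 or more. The causes of these changes were not tested. Of 94 named genes, 29 lost their call with DESeq2 and 17 without the block. A count of 0 Il33 UMIs at this depth does not show that a cell lacks the transcript.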

Other observations

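Genes near Il33 and genes grouped by chromosome were looked at after values were seen, and are given as values. Uhrf2, a ubiquitin ligase that reads modified cytosines, begins 69.8 kb beyond the end of Il33 on chromosome 19. It was at 290, 259, 293 and 271 CPM in the members of libraries 1 to 4 and at 132, 130, 139 and 144 in matched cells, which is 1.04 ± 0.06 on the log2 scale (SE; edgeR adjusted p = 1.25e-41). It was higher by 0.64 ± 0.08 in single-UMI cells and by 0.66 ± 0.14 at 37 °C. Of the 33 genes tested within 5 Mb of Il33, 6 were higher and 3 lower, beside 10.9% higher and 10.7% lower over all genes tested. Among the 6 were Jak2 (0.56 ± 0.11), Smarca2 (0.42 ± 0.08), Sgms1 (0.40 ± 0.08) and Vldlr (0.35 ± 0.09). The Smarca2 difference was 0.86 in library 1 and -0.16 in library 4. The median of chromosome 19 was 0.01.

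By chromosome, among genes with a mean of at least 30 CPM, 16.5% of 4942 genes were called higher and 13.9% lower in members. On chromosome 15, which holds Slc1a3, Enpp2, Krt76 and Myc, 37.8% of 262 genes were higher and 6.49% lower, and the median log2 difference was 0.14 in libraries 1, 2 and 3 and 0.17 in library 4. On chromosome 5, 5.52% of 326 genes were higher and 30.4% lower, with medians of -0.15, -0.10, -0.08 and -0.13. At 37 °C the medians of Il33-positive against matched cells were 0.12 on chromosome 15 and -0.14 on chromosome 5, beside 0.01 over all chromosomes. DNA copy number was not analysed here.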
